A study of Mus musculus with 24 samples.

Results

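De novo lipogenesis is the pathway by which the liver turns surplus carbohydrate into fatty acids, and its core was measured here as 10 genes in mouse liver. Probes were taken by gene name: 26 gene probes, of 56605 on the array, carried 1 of the names Srebf1, Mlxipl, Fasn, Acaca, Acacb, Acly, Acss2, Me1, Thrsp and Pklr. Of these, 25 probes, at least 1 for each of the 10 genes, were bright enough to be tested, and all 25 were well above background on all 24 arrays. The remaining probe, 1 of 7 for Acaca (A_55_P2898142), was above background on 1 array and was not tested. In all, 32078 probes were tested.

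Carbon reaches the pathway as citrate and acetate, which Acly and Acss2 turn into cytosolic acetyl-CoA. Acetyl-CoA carboxylase, encoded by Acaca and Acacb, makes malonyl-CoA, and fatty acid synthase (Fasn) builds palmitate from it with NADPH, part of which comes from malic enzyme (Me1). A pair of transcription factors drives these genes in liver: SREBP-1c, the Srebf1 product that insulin signalling raises and that is released from a membrane-bound precursor, and ChREBP, the Mlxipl product that responds to sugar metabolites.

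RNA came from livers of C57BL/6J mice, hybridised to 1-colour Agilent SurePrint G3 Mouse GE v2 8x60K arrays (Cy3 dye). The labels give 4 groups of 6 livers: male pesticide, male control, female pesticide and female control. Mice arrived at 8 weeks of age, acclimatised for 2 weeks and ate their diet for 52 weeks, either the control diet or 1 enriched in pesticides that the labels do not name singly, and the age label is 68 weeks in all 4 groups, more than these periods add up to. Each of 3 slides carried 8 arrays, 2 per group. The labels give no mouse number, so p-values measure the spread between these liver samples. All levels below are log2 signals after quantile normalization, and a gene with several probes is represented by its brightest tested probe.

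Sex-linked genes went against the sex labels of the labelled male pesticide and labelled female control groups, and matched those of the other groups. Xist, expressed by female cells, gave a clear signal on 12 of 12 arrays labelled pesticide and 0 of 12 labelled control, and the Y-linked genes Eif2s3y, Ddx3y, Kdm5d and Uty on 0 of 12 and 12 of 12. On all 24 arrays these transcripts thus tracked the diet label, so that diet and sex cannot be told apart, and groups are called by their labels throughout. Arrays had 29935 to 39032 probes well above background, 0 spots were saturated, and arrays correlated with each other with r of 0.972 to 0.996. All 11 hepatocyte markers with a probe were above background on 24 arrays. In bulk liver, fewer cells of a type and less RNA per cell cannot be told apart.

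Upstream sequences of 4 genes are shown as examples, picked from the 8 genes that varied together across arrays. Their windows hold letter matches to elements of the kind bound by ChREBP, SREBP and the CCAAT-binding factor NF-Y. RefSeq (GRCm38.p6) listed 15 start sites for the 10 genes, and each sequence is the 250 bases before 1 start, read 5′ to 3′ on the strand of the gene. Capitals mark matches on either strand to a carbohydrate response element (a pair of E-boxes 5 bases apart, each with a free base), CACGTG (an E-box), ATCACCC (a core of the sterol regulatory element) and CCAAT.
Pklr, the downstream of its 2 starts, chr3:89136373-89136622, plus strand: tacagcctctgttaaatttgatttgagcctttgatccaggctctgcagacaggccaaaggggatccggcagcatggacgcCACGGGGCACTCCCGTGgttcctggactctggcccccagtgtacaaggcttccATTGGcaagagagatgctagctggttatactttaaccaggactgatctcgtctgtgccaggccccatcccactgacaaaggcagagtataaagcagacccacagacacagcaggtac
Fasn, chr11:120824548-120824797, minus strand: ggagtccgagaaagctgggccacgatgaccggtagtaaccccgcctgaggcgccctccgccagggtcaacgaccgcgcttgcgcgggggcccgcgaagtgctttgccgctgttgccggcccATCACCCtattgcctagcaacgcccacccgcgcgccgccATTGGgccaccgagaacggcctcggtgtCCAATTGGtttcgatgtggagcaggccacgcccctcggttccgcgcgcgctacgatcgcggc
Thrsp, chr7:97417551-97417800, minus strand: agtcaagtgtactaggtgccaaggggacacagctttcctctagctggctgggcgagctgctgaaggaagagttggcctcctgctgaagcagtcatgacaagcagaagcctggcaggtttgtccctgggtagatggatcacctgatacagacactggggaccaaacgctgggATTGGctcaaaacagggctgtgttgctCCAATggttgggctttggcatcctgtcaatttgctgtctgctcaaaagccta
Acss2, chr2:155517793-155518042, plus strand: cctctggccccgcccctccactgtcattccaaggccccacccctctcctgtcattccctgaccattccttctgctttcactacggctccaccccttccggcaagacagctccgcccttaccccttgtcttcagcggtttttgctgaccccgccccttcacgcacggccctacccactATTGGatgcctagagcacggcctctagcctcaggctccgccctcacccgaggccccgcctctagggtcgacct

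The Pklr window held the carbohydrate response element, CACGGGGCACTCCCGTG, from -170 to -154 relative to the start, a pattern present in 13 of 32851 windows of the same length (0.0396%). The sterol core lay in the Fasn window from -129 to -123, and 2.28% of all windows held it. CACGTG occurred in 1 gene, Mlxipl, from -98 to -93, against 6.02% of all windows. CCAAT occurred in 9 of the 15 windows, those of 8 genes, against 33.8% of all windows. In the Fasn window 2 CCAAT matches overlapped, on opposite strands. The windows of Acaca and Acly, which varied together with the genes shown, held no match to any of these patterns. These are letter matches only, and their part in the co-variation was not tested.

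Srebf1, the gene of SREBP-1c (probe A_51_P401921, mm9, chromosome 11, 60013214 to 60013273, minus strand) ranged over 14.73, 15.42 and 16.29 (lowest, median, highest log2 signal) in labelled male pesticide livers, against 14.37, 14.92 and 15.34 in labelled male control livers. In labelled females it was 14.86, 15.33 and 15.56 in pesticide and 14.19, 15.34 and 16.01 in control livers. The labelled male pesticide arrays reached higher than their controls but overlapped them, and the labelled female controls spread most widely. The labelled diet difference was 0.64 in males (log2, 95% interval 0.07 to 1.21, adjusted p = 0.10) and -0.07 in females (-0.64 to 0.50, adjusted p = 0.89; limma).

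Mlxipl, the gene of ChREBP (A_55_P2119957, chromosome 5, 135613705 to 135613764, plus strand) varied least of the 10 genes. Its lowest, median and highest log2 signals were 15.63, 15.92 and 16.25 in labelled male pesticide livers, against 15.38, 15.70 and 15.82 in labelled male control livers, and 15.53, 15.63 and 15.93 in labelled female pesticide livers, against 15.42, 15.56 and 15.81 in labelled female control livers. Of the labelled male pesticide arrays, 4 exceeded every labelled male control. The log2 difference was 0.26 in labelled males (0.05 to 0.48), with the lowest adjusted p of any member probe there, 0.067, and 0.07 in labelled females (-0.14 to 0.29). Over the alternative settings the labelled male difference ran from 0.12, under 75th percentile scaling of the processed signal, to 0.33, with array weights, where it passed (adjusted p = 0.019). The 2 other Mlxipl probes followed it weakly across arrays (r = 0.30 and 0.25 after centring on groups), and differed by 0.10 and 0.30 in labelled males and 0.16 and 0.15 in labelled females.

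**Figure D1:**
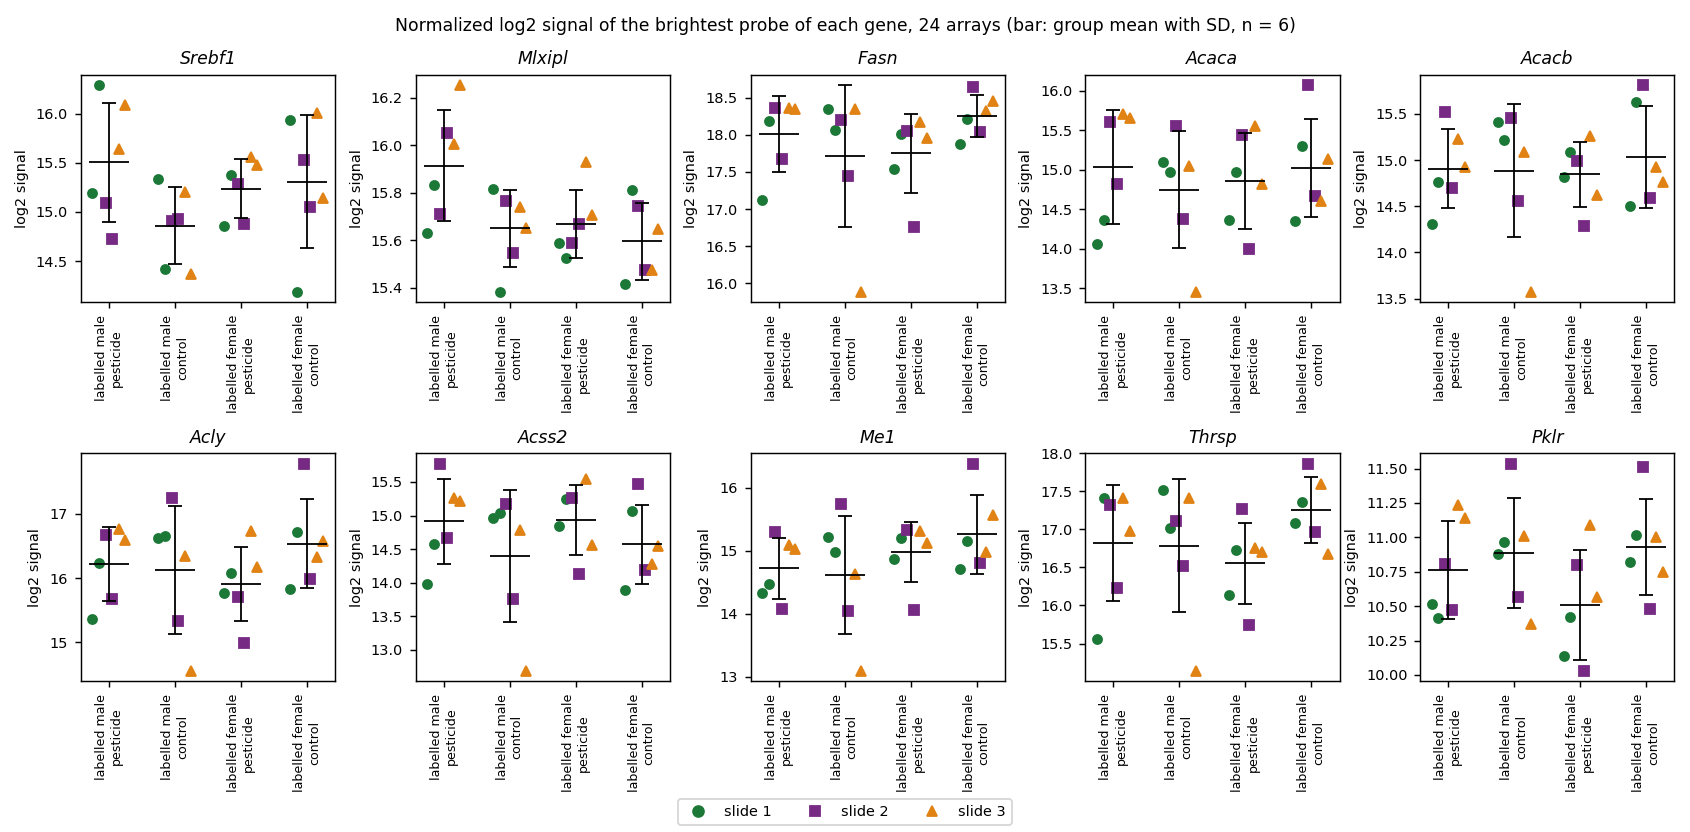
Normalized log2 signal of the brightest probe of each of the 10 genes (vertical axis, a scale of its own per gene) on 24 arrays in the 4 labelled groups, with symbols for the 3 slides and bars for the group mean and SD (n = 6). In all 10 panels the pesticide and control groups overlap, and labelled male control 6 is the lowest array for Fasn at 15.88.

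Of the suppliers of acetyl-CoA, Acly (A_55_P2025954, chromosome 11, 100337674 to 100337733, minus strand) had lowest, median and highest log2 signals of 15.36, 16.41 and 16.76 in labelled male pesticide livers, against 14.56, 16.48 and 17.25 in labelled male control livers. The corresponding values were 14.99, 15.93 and 16.73 in labelled female pesticide livers, against 15.84, 16.45 and 17.78 in labelled female control livers. Acly thus spanned 9.29-fold over the 24 arrays, and its groups overlapped widely. Its log2 difference was 0.09 in labelled males (-0.71 to 0.89) and -0.63 in labelled females (-1.43 to 0.17, adjusted p = 0.28). The second Acly probe (A_55_P2082914) differed by 0.05 in labelled males and -0.68 in labelled females.

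Acss2 (A_66_P108725, chromosome 2, 155388385 to 155388444, plus strand) was, with Mlxipl, a gene whose representative probe had a higher mean in the labelled pesticide group of both labelled sexes. It had 13.99, 14.94 and 15.77 in labelled male pesticide livers, against 12.69, 14.87 and 15.17 in labelled male control livers, and 14.13, 15.04 and 15.55 in labelled female pesticide livers, against 13.89, 14.41 and 15.46 in labelled female control livers. Its log2 differences were 0.51 (-0.26 to 1.28, adjusted p = 0.35) and 0.36 (-0.41 to 1.13, adjusted p = 0.55). Without labelled male control 6 the labelled male one was 0.17, and without labelled female control 1 the labelled female one was 0.22. A probe to another transcript of the gene (A_55_P2716851, Ensembl transcript ENSMUST00000149788) gave the largest member difference in labelled males, 1.41 (0.19 to 2.62, adjusted p = 0.090), and 0.08 in labelled females (-1.13 to 1.30). Its means were 9.10 ± 1.51 in the labelled male pesticide group and 7.69 ± 0.69 in the labelled male controls (SD, both of n = 6). Of the remaining Acss2 probes, A_55_P1988795 differed by 0.55 in labelled males and 0.54 in labelled females. The other, A_55_P2935081, is annotated to the same Ensembl transcript as A_55_P2716851. It differed by only 0.37 in labelled males (-0.21 to 0.96) and -0.17 in labelled females.

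The carboxylases and the synthase build the chain. Acaca (A_55_P2019058, chromosome 11, 84215093 to 84215152, plus strand) ran over 14.06, 15.21 and 15.71 in labelled male pesticide livers, against 13.46, 15.01 and 15.55 in labelled male control livers, and over 14.00, 14.90 and 15.55 in labelled female pesticide livers, against 14.35, 14.90 and 16.07 in labelled female control livers. The groups overlapped almost wholly, with log2 differences of 0.29 (-0.45 to 1.03) and -0.16 (-0.90 to 0.58). All 6 tested Acaca probes lay between 0.25 and 0.36 in labelled males and between -0.25 and -0.07 in labelled females.

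Acacb, whose product sits on mitochondria where its malonyl-CoA restrains fatty acid entry, was read by A_55_P2019054 (chromosome 5, 114700702 to 114700761, plus strand). Its lowest, median and highest log2 signals were 14.31, 14.84 and 15.52 in labelled male pesticide livers, against 13.57, 15.15 and 15.46 in labelled male control livers. Labelled female pesticide livers had 14.28, 14.90 and 15.26, and labelled female control livers 14.51, 14.84 and 15.82. The log2 difference was 0.02 in labelled males (-0.56 to 0.61) and -0.19 in labelled females (-0.78 to 0.39). Of the further Acacb probes, A_55_P2921709 differed by 0.10 in labelled males and -0.10 in labelled females, and A_66_P110803 by -0.08 and -0.12.

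Fasn (A_51_P321126, chromosome 11, 120668460 to 120668519, minus strand) had 17.12, 18.27 and 18.37 in labelled male pesticide livers, against 15.88, 18.13 and 18.35 in labelled male control livers, with 1 control array far below the other 5. In labelled females it had 16.76, 17.99 and 18.17 in pesticide and 17.87, 18.27 and 18.65 in control livers. The log2 differences were 0.30 (-0.39 to 0.98) and -0.51 (-1.19 to 0.18, adjusted p = 0.31). Without labelled male control 6 the labelled male difference was -0.07.

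Me1 (A_55_P2009952, chromosome 9, 86475077 to 86475136, minus strand) had 14.08, 14.75 and 15.29 in labelled male pesticide livers, against 13.10, 14.80 and 15.74 in labelled male control livers, and 14.06, 15.15 and 15.33 in labelled female pesticide livers, against 14.70, 15.06 and 16.38 in labelled female control livers. It spanned 9.74-fold over the 24 arrays, the widest of the 10 representative probes, with log2 differences of 0.10 (-0.63 to 0.83) and -0.28 (-1.01 to 0.44). The second Me1 probe (A_55_P2016842) differed by 0.06 in labelled males and -0.18 in labelled females.

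Thrsp encodes Spot 14, a small protein that rises with lipogenesis. Its probe A_55_P2018666 (chromosome 7, 104561649 to 104561708, minus strand) had 15.56, 17.15 and 17.41 in labelled male pesticide livers, against 15.14, 17.07 and 17.51 in labelled male control livers. In labelled females it had 15.74, 16.71 and 17.27 in pesticide and 16.68, 17.22 and 17.86 in control livers. The log2 difference was 0.03 in labelled males (-0.71 to 0.77) and -0.70 in labelled females (-1.45 to 0.04, adjusted p = 0.18), the most negative of the 10 in labelled females. The second Thrsp probe (A_51_P194099) differed by -0.11 in labelled males, the opposite sign, and by -0.80 in labelled females.

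Pklr, the liver pyruvate kinase gene, was read by A_51_P176042, which spans 519 bases of chromosome 3 (88948907 to 88949425, plus strand). Its lowest, median and highest log2 signals were 10.41, 10.66 and 11.24 in labelled male pesticide livers, against 10.37, 10.92 and 11.54 in labelled male control livers. Labelled female pesticide livers had 10.03, 10.49 and 11.09, and labelled female control livers 10.48, 10.91 and 11.51. The log2 difference was -0.12 in labelled males (-0.54 to 0.30, adjusted p = 0.71) and -0.42 in labelled females (-0.84 to -0.00, adjusted p = 0.16).

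**Figure D2:**
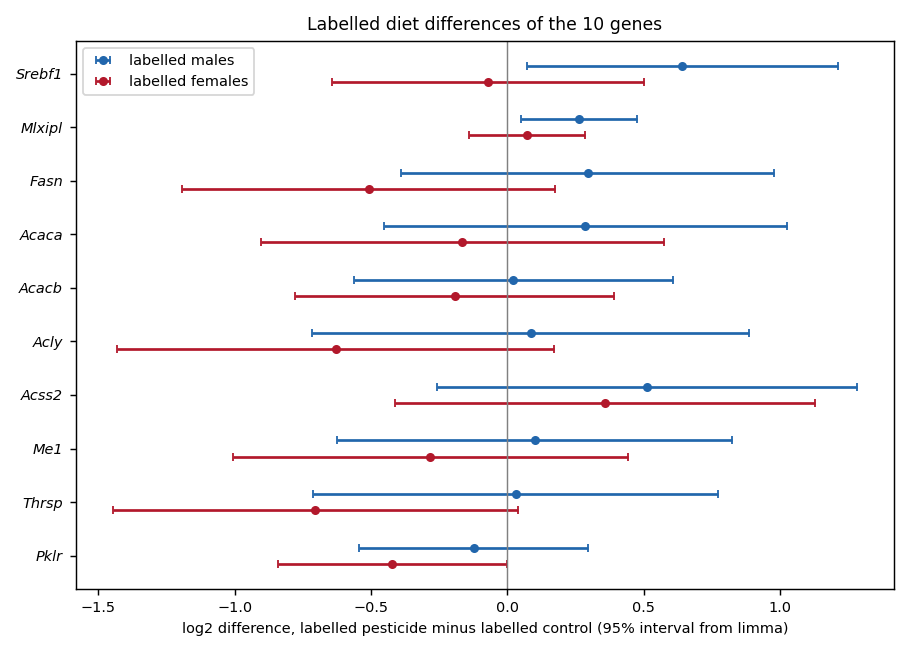
Log2 difference of labelled pesticide minus labelled control (horizontal axis) for each of the 10 genes in labelled males and labelled females, with the 95% interval from limma. For Srebf1 and Mlxipl in labelled males and Pklr in labelled females the intervals exclude 0, while no adjusted p passed 0.05.

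No member probe passed the test of the labelled diet. In labelled males 0 of 25 passed a Benjamini-Hochberg adjusted p of 0.05 (limma), against 22.2% of all tested probes (11.6% higher, 10.7% lower). There 3 of 25 had an unadjusted p under 0.05, against 34.5% of all tested probes. In labelled females 0 of 25 passed, against 18.3% (8.88% higher, 9.44% lower), and 2 had an unadjusted p under 0.05, against 31.7%. For the mean of the 2 labelled diet differences 0 of 25 passed, against 36.1%, 3 had an unadjusted p under 0.05 and the lowest adjusted p was 0.052, for a Mlxipl probe. No member's groups of 6 failed to overlap, against 10.2% and 7.82% of all tested probes in labelled males and females. Leaving out 1 array changed the labelled male count to 2 without labelled male pesticide 1 (Acss2 and Mlxipl), and to 1 without labelled male pesticide 3 (Mlxipl) or 4 (Srebf1).

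Of the representative probes, 9 varied widely between livers of 1 group and that of Mlxipl did not. Mlxipl was not called in the reported fit either, and the part of the spread in the absence of calls was not tested. The within-group SD of the representative probes was 0.18 for Mlxipl and 0.38 to 0.73 for the other 9, against a median of 0.18 over all tested probes with quartiles of 0.14 and 0.25. An interval for Acly in labelled females that runs from 0.371-fold to 1.13-fold shows the range that 6 livers per group left.

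Counts of signs differed between the labelled sexes, with no call and with a strong dependence on single arrays. The differences in labelled males were positive for 22 of 25 probes (median 0.26) and in labelled females for 6 of 25 (median -0.16), with medians near 0 over all tested probes (-0.03 and -0.02). The 25 probes are not separate units, since several read the same gene and most of the genes varied together across arrays. In labelled males 15 of 25 were positive without labelled male control 4, and also without labelled male control 6, where Fasn, Acacb, Acly, Me1 and Thrsp were below 0. In labelled females 14 of 25 were positive without labelled female control 3, which turns the count, and 12 of 25 without labelled female pesticide 4. With signals scaled to the 75th percentile, the labelled male differences of Acacb, Acly and Thrsp were below 0, as they and Me1 were with array weights. The difference between the labelled diet effects was positive in 24 of 25 probes (median 0.44), and 0 passed against 0% of all tested probes. An unadjusted p under 0.05 was reached by 0 of 25, against 3.94% of all tested probes. The smallest unadjusted p was that of Srebf1, 0.081, at a log2 difference of 0.71 (-0.09 to 1.52).

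Between the labelled sexes, 0 of 25 member probes passed within labelled pesticide (0% of all tested probes) or within labelled control (0%). Within labelled pesticide 2 members had an unadjusted p under 0.05, against 4.09% of all tested probes. Within labelled control 0 did, against 5.59%. Labelled male pesticide minus labelled female pesticide was 0.25 for Mlxipl (0.03 to 0.46) and -0.26 for Me1 (-0.99 to 0.46). Labelled male control minus labelled female control was -0.65 for Me1 (-1.37 to 0.08) and -0.54 for Fasn (-1.23 to 0.14). Leaving out 1 array at a time gave -0.87 to -0.34 for Me1 and -0.67 to -0.18 for Fasn. The mean of the labelled sex differences likewise called 0 of 25 (0% of all), with 2 members at an unadjusted p under 0.05, against 5.59% of all tested probes. Groups of 6 that did not overlap made up 0.271% of all tested probes in labelled pesticide and 0.436% in labelled control, and 0 of 25 member probes. Both labelled pesticide groups expressed Xist and both labelled control groups the Y-linked genes. By these transcripts each comparison lay within 1 sex, so it cannot show a difference between the sexes.

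No member probe passed the test of slide. In a fit of group and slide, 0 of 25 member probes passed the moderated F test on slide, against 0.302% of all tested probes, and the lowest p was that of 1 Acacb probe (A_66_P110803, unadjusted p = 0.047, adjusted p = 0.33). Slide held between 0.0875% and 26.3% of the within-group variation of a member probe. Each slide held 2 arrays per group. The labelled male diet difference kept 1 sign on all 3 slides for 4 of 25 probes, the 3 Mlxipl probes (0.13, 0.23 and 0.43 for the representative probe) and Acss2 A_55_P2716851, and the labelled female one for 8 of 25. In labelled males Fasn had -0.56, 0.20 and 1.24 on slides 1, 2 and 3, and Acly -0.85, -0.11 and 1.22, where slide 3 holds labelled male control 6. In labelled females Fasn, Acly, Thrsp and Pklr kept 1 sign (Fasn -0.26, -0.94 and -0.33), and the other 6 genes did not, among them Acaca (-0.16, -0.65 and 0.32) and Me1 (0.10, -0.89 and -0.06). With slide as a block, 0 member probes passed in either labelled sex.

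The 8 genes other than the regulators varied together from liver to liver. After centring each gene on its 4 group means, the 28 pairs among Fasn, Acaca, Acacb, Acly, Acss2, Me1, Thrsp and Pklr had Pearson r of 0.66 to 0.97 over 24 arrays (median 0.86) and Spearman rho of 0.66 to 0.97 (median 0.84). All 28 passed an adjusted p of 0.05, with adjusted p up to 0.0022 (permutation within groups, Benjamini-Hochberg over 45 pairs). The closest pair was Acacb and Acss2 (r = 0.97, rho = 0.97, permutation p = 1e-05, the smallest that 100000 permutations can give; adjusted p = 2.6e-05), and the loosest Thrsp and Pklr (r = 0.66, rho = 0.66, permutation p = 0.0014, adjusted p = 0.0022).

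Neither regulator transcript followed the 8 as closely. Srebf1 had r of 0.08 to 0.50 with them (median 0.26), and 2 of 8 pairs passed, with Thrsp (r = 0.50, rho = 0.53, adjusted permutation p = 0.024) and Fasn (r = 0.41, rho = 0.37, adjusted permutation p = 0.035). Mlxipl had r of 0.22 to 0.50 (median 0.33), and 2 of 8 passed, with Acaca (r = 0.50, rho = 0.55) and Pklr (r = 0.48, rho = 0.45), each at an adjusted permutation p of 0.037. These values are of its representative probe, and the Mlxipl probes did not agree. With the mean of the 8 centred genes the representative probe had r = 0.37, A_55_P2728555 0.26 and A_55_P2045158 -0.20. By rho, 1 of 8 pairs passed for each regulator, and the calls of Srebf1 with Fasn (adjusted permutation p = 0.11) and of Mlxipl with Pklr (0.054) were lost. Centred on slide, adjusted permutation p was 0.075 for Srebf1 with Fasn, 0.096 for Mlxipl with Acaca and 0.20 for Mlxipl with Pklr. Srebf1 and Mlxipl had r = 0.08 with each other (rho = 0.10, permutation p = 0.74). The difference between these correlations was not tested. In all, 32 of 45 pairs passed.

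**Figure D3:**
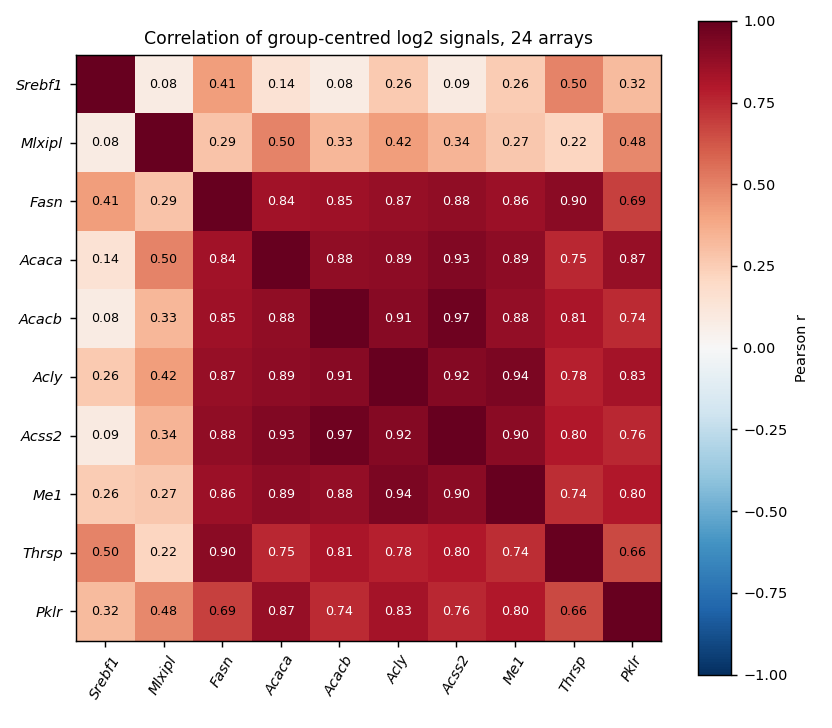
Pearson r between the group-centred log2 signals of each pair of the 10 genes over 24 arrays, from -1 (blue) to 1 (red), with r printed in each cell. The block of 8 genes from Fasn to Pklr lies between 0.66 and 0.97, and the rows of Srebf1 and Mlxipl between 0.08 and 0.50.

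The correlations among the 8 were recomputed on fewer arrays. Without the 2 arrays farthest from the median of the first gene of each pair, the 28 pairs kept a median r of 0.79 (lowest 0.61) and all 28 passed, while the passing pairs of Mlxipl went to 0. Centred on slide as well, the median was 0.87. Within slides 1, 2 and 3 it was 0.71, 0.96 and 0.91, with a lowest value of -0.02 on slide 1, for Thrsp and Pklr. Within the groups the median was 0.85 in labelled male pesticide, 0.95 in labelled male control, 0.85 in labelled female pesticide and, for labelled female controls, 0.84. For Srebf1 the slides did not agree, with medians of -0.26, 0.81 and 0.57.

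Single livers were the lowest or the highest of their group for most of the 10 genes. The mean of the 10 centred values ranged from -1.19 in labelled male control 6, which was the lowest of its group for 9 of 10 genes, to 0.70 in labelled female control 3, the highest of its group for 8 of 10. Labelled male pesticide 1 (-0.67, lowest for 7 genes) and labelled female pesticide 4 (-0.67, lowest for 8) were also low, and labelled male control 3 (0.60) was high. Labelled female control 1 (-0.34) was lowest of its group for 7 genes, and labelled female pesticide 5 (0.47) highest for 8. The mean had r = -0.12 (rho = -0.15) with the number of probes above background on an array and r = 0.04 (rho = -0.04) with its median spot signal.

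**Figure D4:**
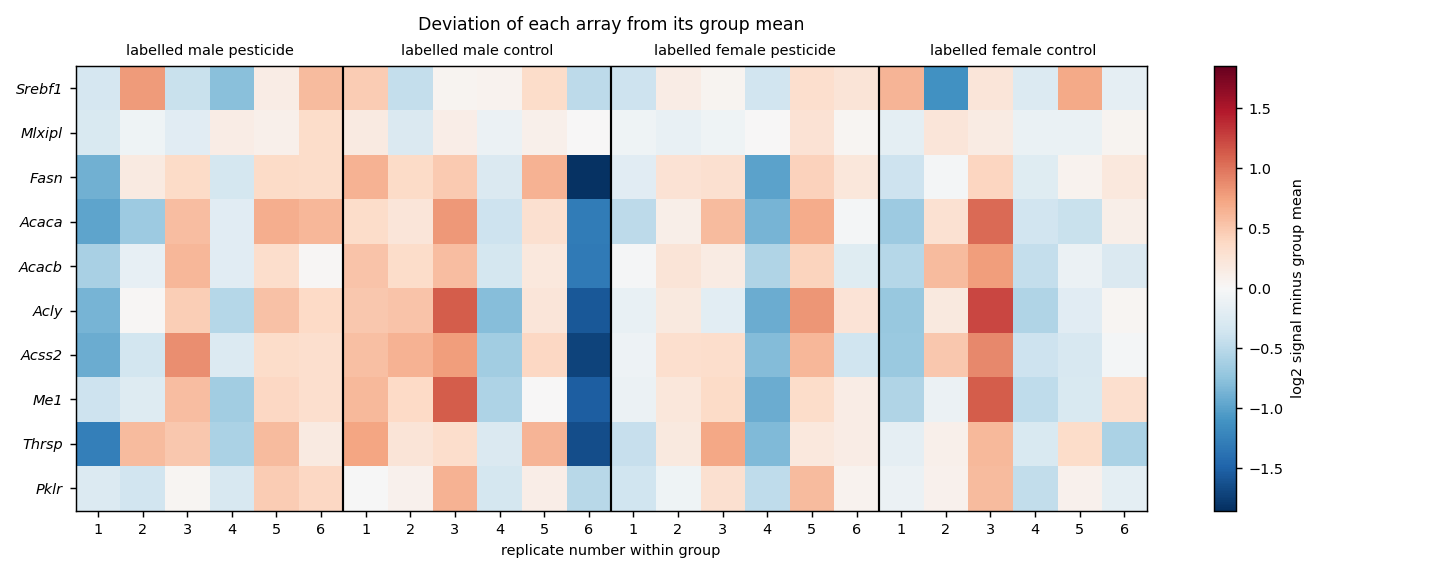
Log2 signal minus the group mean for each of the 10 genes (rows) on each of 24 arrays (columns, by replicate number within the 4 labelled groups), from blue (below) to red (above). Labelled male control 6 is blue in 9 rows and labelled female control 3 is red in 10, while Mlxipl stays near white.

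Probes of 1 gene agreed to different degrees. The 5 further tested Acaca probes had r of 0.96 to 0.99 with the representative probe, the second Acly probe 0.96, the second Me1 probe 0.92 and the second Thrsp probe 0.99. The other Acss2 probes had 0.95, 0.79 and 0.53, the last being A_55_P2716851, and the other Acacb probes 0.70 and 0.50.

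The genes most like the group were found by Pearson r between each gene's centred signal and the mean of the 10, over 24 arrays that share their normalization, as a description. Highest were Elovl6 (0.97), which elongates palmitate, and Pgd (0.95) of the NADPH-yielding pentose phosphate pathway, followed by Acsl5 and G6pdx (0.92 each), Scd3 (0.92), Pnpla3 (0.91), Pnpla5 and Fdps (0.90 each), and Chrna4, Olfml1, Pstpip2 and Gpam (0.89 each). Lowest were Cyp4v3 (-0.87), Crot (-0.85), a peroxisomal carnitine acyltransferase, Klkb1 (-0.84), Aox3 (-0.83), Rxra (-0.82) and Proc (-0.82). Over 15889 genes the median r was -0.02, and 91 genes (0.573%) reached 0.8. Without labelled male control 6 and labelled male pesticide 1, the 2 arrays farthest out, Elovl6 had 0.97 and Cyp4v3 -0.76.

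Of these 18 genes, 3 passed the labelled diet test in labelled males and 3 in labelled females, against 14.3% of all genes higher and 11% lower in labelled males, and 10.6% and 10.2% in labelled females. On the most alike side, Pnpla3, a lipid droplet acylhydrolase, was higher by 2.43 in labelled males (adjusted p = 0.021) and by 0.66 in labelled females, where it did not pass (adjusted p = 0.58). Olfml1 fell by 0.56 in labelled females (adjusted p = 0.029). On the least alike side, Cyp4v3 fell by 0.86 and 0.70 (adjusted p = 6.7e-04 and 0.0047), and Aox3 fell by 1.46 and 1.47 (adjusted p = 3.3e-05 and 4.0e-05; limma), in labelled males and females.

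Other genes of the pathway were counted from lists by role, against the same shares of 15900 genes. Of 15 fatty acid modification and esterification genes, 9 had r of at least 0.5 with the mean of the 10, against 6.89% of all genes. In labelled males 3 rose and 1 fell, and in labelled females 2 rose and 0 fell, Scd2 by 1.87 and 1.27 and Dgat2, which makes triglyceride, by 0.63 and 0.51. The desaturase Scd1 followed the group (r = 0.86) with labelled diet differences of -0.27 and -0.22 that did not pass.

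Of 16 glucose entry and glycolysis genes, 8 reached r of 0.5, 0 rose, and 3 in labelled males and 4 in labelled females fell. Pfkfb1, which sets a regulator of phosphofructokinase, fell by 0.95 and 0.89, and Pgam1 by 0.39 and 0.35. Of 10 NADPH supply genes, 6 reached 0.5, 2 rose and 2 fell in labelled males, and 1 rose and 1 fell in labelled females, with Me2 at 0.54 and 0.46 and Taldo1 at -0.33 and -0.45.

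Of 13 citrate and acetyl-CoA genes 5 reached 0.5. There 3 rose and 1 fell in labelled males, and 2 rose and 1 fell in labelled females: the pyruvate carriers Mpc1 (0.57 and 0.35) and Mpc2 (0.45 and 0.43) were higher and the citrate carrier Slc25a1 (-0.41 and -0.40) lower. Of 10 genes of malonyl-CoA turnover and acyl-CoA synthetases 5 reached 0.5, 1 rose and 2 fell in labelled males, and 0 rose and 2 fell in labelled females, among them Acsl1 (-0.72 and -0.60). Mid1ip1, which promotes carboxylase polymers, had r = 0.72 with Srebf1.

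Regulators and signalling genes were counted the same way. Of 19 partners of SREBP-1c and ChREBP, 3 reached r of 0.5, and 2 rose and 2 fell in labelled males and 3 rose and 0 fell in labelled females. Insig1, which retains SREBP precursors, was higher by 0.63 in labelled males (adjusted p = 0.025; -0.09 in labelled females, not passing) and Txnip, a glucose-induced gene, by 0.95 (adjusted p = 0.012). Of 19 insulin and AMPK signalling genes 1 reached 0.5, with 2 higher and 2 lower in labelled males, and 1 higher and 3 lower in labelled females. Of 17 fasting response genes 1 reached 0.5 (Igfbp1 at 0.72) and 1 was at -0.5 or below, with a list median of 0.05. Pck1 and G6pc of gluconeogenesis had r of -0.45 and -0.52. Of 16 clock genes 1 reached 0.5 (Cry2 at 0.55), with a list median of -0.05.

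**Figure D5:**
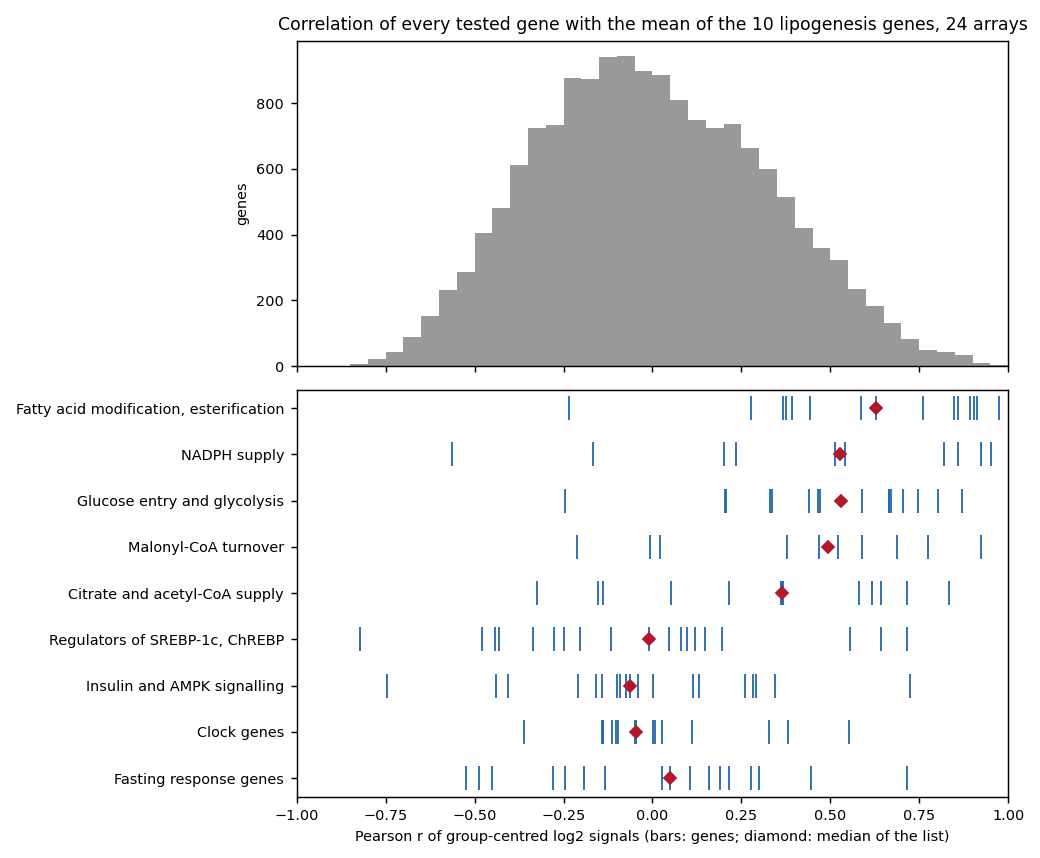
Above, the number of genes (vertical axis) by Pearson r with the mean of the 10 lipogenesis genes (horizontal axis, 24 arrays), including the 10 genes themselves. Below, r of the tested genes of 9 lists as bars, with diamonds for list medians, which run from 0.63 for fatty acid modification to -0.06 for insulin and AMPK signalling.

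Markers of other liver cells moved with the labelled diet. Of all genes, 14.3% passed as higher in labelled males and 10.6% in labelled females. Higher with the labelled pesticide diet were 11 of 12 macrophage and Kupffer cell markers in labelled males and 10 in labelled females. Of 10 endothelial markers 9 and 7 were higher, and of 10 stellate cell markers 9 and 4. Their summed log2 levels were 15.60 to 16.44 in labelled male pesticide livers, against 14.28 to 16.17 in labelled male control livers for Kupffer cells. In labelled females they were 15.13 to 16.82 in pesticide and 13.96 to 16.36 in control livers. The endothelial sums, pesticide before control, were 14.71 to 15.32 against 14.21 to 14.73 in labelled males, which overlapped, and 14.79 to 15.26 against 14.12 to 14.60 in labelled females, which did not. Stellate sums were 15.45 to 15.67 against 14.79 to 15.36 in labelled males. In labelled female pesticide livers they were 15.28 to 15.67, within the range of the labelled female controls. Across arrays, the summed endothelial markers had r = 0.54 with the mean of the 10 genes, against -0.10 for Kupffer cell and 0.26 for stellate cell markers, and their part in the results was not tested. Of the 8 adipocyte markers, 4 (Lep, Fabp4, Lipe and Pparg) were above background on 24 arrays, Adipoq and Plin1 were above background on at most 1 array, and Cfd fell by 2.79 in labelled males and passed as lower in labelled females too. The sum of the adipocyte markers had r = 0.32 with the mean of the 10 genes, and that of the 11 hepatocyte markers r = -0.01.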

How the data were processed

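Liver RNA of 24 arrays in 4 groups of 6 was measured. Scanner files deposited by the authors hold spot intensity per the file headers, extracted with Agilent Feature Extraction 10.10.1.1 per the submitters' processing notes. The authors' deposited series table gives log2 signal that they filtered and quantile normalized, per the labels' protocols, and each array correlated best with its own column. Marks of spot quality came from the same files.

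Here log2 of the median signal per spot was taken without subtracting background, outlier spots were set to missing, spots averaged per probe and arrays quantile normalized. A probe was tested when well above background on at least 4 of 6 arrays of a group. One mean per group was fitted over the 24 arrays (limma 3.58.1, R 4.3.3), two-sided, Benjamini-Hochberg over 32078 probes. The fits of group and slide were tested on simulated data, and the correlations and the search for letter matches were not. Correlations used group-centred values and 100000 within-group permutations. Depth is not defined for arrays, and their number limits the precision. Probe positions are on mm9, and named genes are all member probes, up to 4 genes of each list, and the 12 highest and 6 lowest by likeness. Scd1, Pck1, G6pc and Igfbp1 are outside that rule and were named after their values were seen. Members and lists were chosen with earlier results of these data known. Alternatives are given in the closing section.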

Additional observations from a re-analysis of the deposited data

Results flagged for a closer look

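Of 100 sets of 6 arrays, 25 probes in 4 groups, 2 had 1 array far from the others by Dixon's test of the gap over the range, which chance flags in about 1 of 20 groups. Fasn in labelled male control 6 was 15.88, next to 17.44 for the nearest array of that group, a gap of 0.632 of the range. Me1 (A_55_P2009952) in labelled female pesticide 4 was 14.06, next to 14.87, a gap of 0.635 of the range. Both arrays were also the lowest of their group for most of the 10 genes, 9 for labelled male control 6 and 8 for labelled female pesticide 4.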

How the results depend on the processing

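In labelled males, 0 member probes passed in the reported fit, 1 when only the arrays compared were fitted (a further Mlxipl probe) and 2 with array weights (Acss2, Mlxipl). In labelled females 0 passed, and 1 with the replicate block (Pklr, -0.42, adjusted p = 0.045). For the mean of both, 0 passed, against 1 with normexp, with only probes above background on all arrays and with trend and robust settings, 2 with the replicate block and 3 with array weights. Leaving out 1 array gave 0 to 2 in labelled males, 2 without labelled male pesticide 1, and 0 to 3 for the mean, 3 without labelled female control 2 and 2 without labelled male control 6 or labelled male pesticide 1. In labelled females, between the labelled sexes, for the interaction and for slide, 0 passed without any 1 array. Same-numbered arrays of different groups correlated with r of -0.12 to 0.34 (36 pairs, median 0.08, 15 over 0.1). The median was -0.02 for arrays of other numbers, and 14 of 24 arrays correlated best with their own number. Some likeness thus went with the replicate number or with the slide. All arrays of 1 number lay on 1 slide, so number and slide cannot be told apart in this comparison. The labels do not say what the numbers stand for, so the reported fit leaves them out and the replicate block is an alternative.

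Of 320 alternative values for the 10 genes in the labelled male and labelled female diet differences and their interaction, 307 kept direction and call, 11 changed sign with no call on either side, and 2 gained a call (Mlxipl at 0.33 with array weights in labelled males, and Pklr above). Passing pairs numbered 32, 29 centred on slide, 31 with signals scaled to the 75th percentile, 30 without the 2 farthest arrays and 29 to 34 without 1 array, the last chosen after seeing the data. Over all tested probes, slide called 97, against 33 and 170 with the median and the processed signal scaled, 4 with no filter, 256 with array weights and 0 to 97 without 1 array. Causes were not tested. 6 livers per group, sex-chromosome transcripts that coincide with the labelled diet, and unknown mouse numbers limit these results.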
